A study of Homo sapiens with 4 samples.

Results

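The transcriptome described here is that of U87 cells, an established human glioblastoma cell line, 24 h after transfection with a negative control oligo (NC oligo) at 25 nM. Its members are the 2 arrays labelled NC oligo, NC oligo array 1 and NC oligo array 2, out of 4 arrays in the series. The arrays were chosen by label alone, and no array of the other group, cells given a synthetic piR-598 mimic in the same way, enters any value below, apart from 1 alternative normalization. Per the labels, the NC oligo was a commercial control made for microRNA inhibitors, carried in with a lipid reagent into cells grown in serum-containing medium. All values therefore belong to transfected cells, and untransfected U87 cells were not analysed here. The labels call the arrays biological duplicates and do not say whether they came from separate passages, so the spread between them may be partly technical. U87 is a single long-cultured line and stands for no tumour as a whole.

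Glioblastoma is a malignant brain tumour of glial character. Its expression subtypes are known by marker sets: mesenchymal tumours by matrix, cytoskeletal and wound-response genes, classical tumours by EGFR, and proneural tumours by oligodendrocyte precursor factors such as OLIG2 and PDGFRA. Frequent events in gliomas are loss of the chromosome 9p21 region that holds CDKN2A and silencing of the DNA repair gene MGMT. PIWI-interacting RNAs, the class to which piR-598 belongs, act with PIWI proteins that are best known from the germ line.

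Each array gave a signal intensity, the brightness of a probe on a linear scale, and a detection p for 47318 probes. The detection p ranks a probe against the negative control probes of the same array, so it says whether a signal stands above background. Here a gene is detected when at least 1 of its probes had a detection p under 0.01 on both arrays. It is absent when every probe had a detection p over 0.05 on both, and in between otherwise. Absent thus means not distinguishable from background on these arrays, not that no RNA was made. Each gene is given the values of its brightest probe, and every pair of signals or detection p below is array 1, then array 2. Probes differ in how well they bind, so a brighter probe for one gene than for another is no measure of more transcripts.

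Of 20045 named genes, 10079 or 50.3% were detected, 7721 or 38.5% were absent and 2245 or 11.2% fell in between. Every count of list members below is to be read beside these shares. The lowest signal with a detection p under 0.01 was 105.9 on array 1 and 107.9 on array 2. The array mean signal was 305.8 on array 1 and 299.99 on array 2, and the median over all probes was 99.4 on array 1 and 99.5 on array 2. A signal near 100 is thus the level of background. Among detected genes, 53 had a mean signal over 10000, 1601 over 1000, 4722 from 200 to 1000 and 3756 under 200. The median signal was 278 over detected genes and 94.6 over absent genes. Of all 47318 probes, named or not, 15941 or 33.7% were detected on both arrays. With 2 arrays, the spread between them is the only error that can be given.

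**Figure D1:**
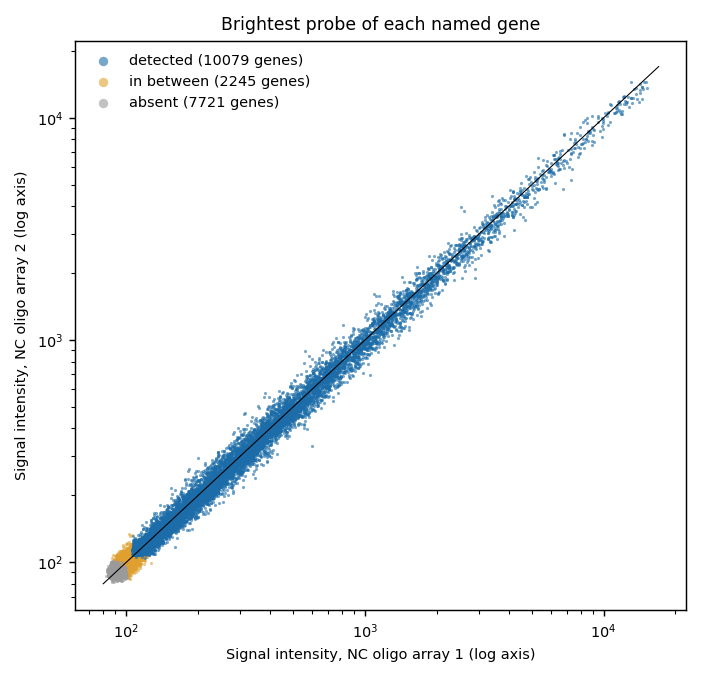
Signal intensity of the brightest probe of each of 20045 named genes on NC oligo array 1 (horizontal, log axis) and NC oligo array 2 (vertical, log axis), coloured by call, with the line of equal signal. Absent genes form a cloud near 95 and detected genes follow the line up to about 15211 on array 1.

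The arrays were closely alike. After background correction and quantile normalization on the log2 scale, the difference between the arrays had an SD of 0.20 over the 10079 detected genes, and 97.9% of them lay within 0.5. Pearson's r was 0.994 and Spearman's rho 0.993, across genes, which are not independent replicates. The spread was larger at the dim end, with an SD of 0.24 for genes with a signal under 200 and 0.13 for those over 5000. A single gene, OAZ2, an antizyme that restrains polyamine synthesis, differed by more than 1 on the log2 scale, with signals of 160.1 and 117. Next came BLOC1S1, a subunit of a lysosome biogenesis complex, at 601 and 334. Both were brighter on array 1. KAT7, a histone acetyltransferase, gave 106 and 131 and PRKAR2A, a regulatory subunit of protein kinase A, gave 154 and 216, both brighter on array 2. The other 6 of the 10 genes of largest difference were CTBP2, TNRC6B, PHF3, NAA15, GPKOW and SNORD52, of which GPKOW and SNORD52 were brighter on array 1.

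The brightest signals came from genes of translation, energy metabolism, the cytoskeleton and metal handling. MT2A, a metallothionein that binds zinc and copper, gave 15112 and 14508. LDHA, which turns pyruvate into lactate, gave 14748 and 14479. The elongation factor EEF1A1 gave 15211 and 13653. These 3 stood at the top of an order that the data do not fix, since their array ranges overlapped with each other and with those below them. TPT1, a growth-related tumour protein, followed at 14269 and 14204 and LGALS1, the secreted lectin galectin-1, at 14439 and 13799.5. FTL, the light chain of the iron store ferritin, gave 14139 and 13399, and TGFBI, a matrix protein induced by TGF-beta, gave 13457 and 13414. F2R, the thrombin receptor PAR1, gave 13731 and 12771. Cytoskeletal genes among the 30 brightest were TMSB4X, ACTB, VIM, TUBA1C, TUBA1A and TMSB10, and glycolysis was represented by LDHA, ENO1 and GAPDH. The ribosomal protein genes RPL41, RPLP2, RPS12, RPS27, RPS29, RPL38, RPS16 and RPS19 were also among them, with the pseudogene RPSAP9. The rest were S100A10, TIMP1, TMEM158, ANXA2 and LAIR1.

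The mean signals of the 30 ran from 14810 for MT2A to 11806 for TMSB10, a narrow range. All 29 pairs of neighbours in the order overlapped between arrays, and 220 of all 435 pairs did. Array 1 was brighter for 26 of the 30. ACTB, cytoplasmic beta-actin, was among the exceptions, with 13009.6 and 14448. RPL38, TMEM158 and ANXA2 were the others.

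**Figure D2:**
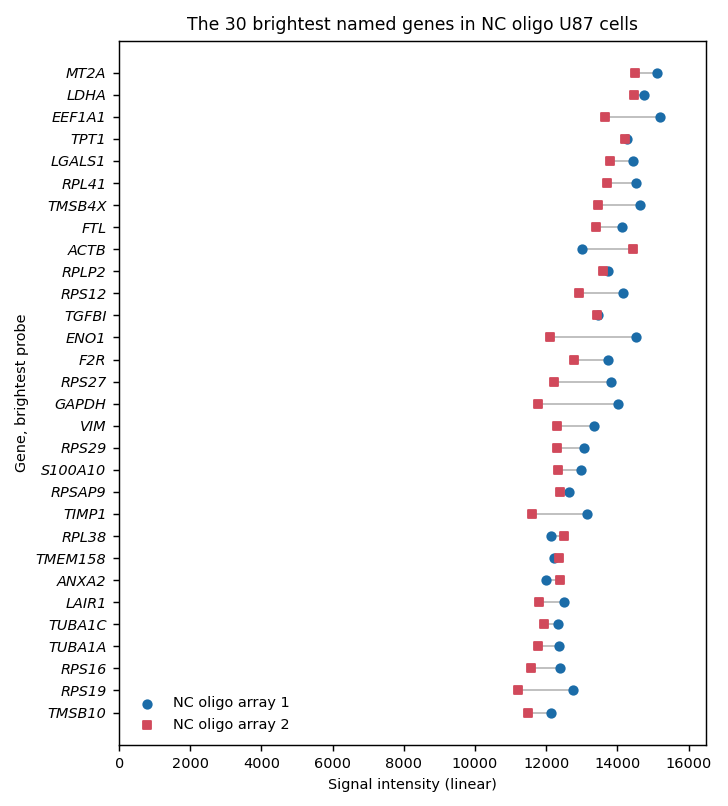
Signal intensity (linear axis from 0) of the 30 brightest named genes, with a circle for NC oligo array 1 and a square for NC oligo array 2, joined by a line. The symbols of neighbouring genes overlap all the way from MT2A to TMSB10.

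The place of some of these genes rests on 1 probe. TMSB4X, the actin-sequestering thymosin beta-4, gave 14622 and 13442 on its brightest probe, while its other probe read 93.5 and 95.3 with a detection p of 0.534 and 0.397. For F2R the other probe read 184 and 186. LAIR1, a collagen receptor of leukocytes, gave 12495 and 11789 on one probe, and 104 and 107 on the other, which was not detected. RPSAP9 gave 12638 and 12376 on one probe, and 130 and 122 on the other. As a processed copy of RPSA, its probe may also read the parent transcript, which was not tested. When the middle probe of each gene was taken in place of the brightest, 21 of the 30 stayed, and ANXA2, F2R, LAIR1, RPL41, RPS29, RPSAP9, TMSB4X, TPT1 and TUBA1A left.

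Genes of the ribosome were detected almost without exception. Of 69 cytosolic ribosomal protein genes with a named probe, 68 were detected, against 50.3% of all named genes, with a median signal of 7258 against 110 over all named genes. RPL41, the smallest protein of the large subunit, gave 14518 and 13709. RPLP2, an acidic protein of the ribosomal stalk, gave 13724 and 13609, and RPS12, of the small subunit, 14156 and 12915. The exception was RPL10, a large subunit protein needed for subunit joining, whose 2 probes were both absent, the brighter at 99.5 and 98.8 with a detection p of 0.127 and 0.175. Whether this reflects the probes or the transcript was not tested. All 36 translation factors were detected, from EEF1A1 down to the cap-binding EIF4E, with a median signal of 2373. The RNA helicase EIF4A1 gave 10129 and 10545 and the elongation factor EEF2 gave 6845 and 6436. Poly(A)-binding PABPC1 gave 4526 and 4539.

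Ribosomal protein transcripts are known to begin with a C and a run of pyrimidines, the 5′ terminal oligopyrimidine tract, through which the mTOR kinase controls their translation. RefSeq promoter windows (GRCh38.p14) were found for 59 of the 69 ribosomal protein genes, or 85.5%. A C followed by 4 pyrimidines, read at the annotated start on the transcribed strand only, stood in 41 of the 59, or 69.5%, against 4.04% of 27305 genes in the promoter table. None of 23 proteasome genes and none of 19 glycolysis genes with a window had it. Other lists had it too, translation factors at 9 of 28 or 32.1% and the respiratory chain at 7 of 36 or 19.4%. It stood in 5.70% of 8221 windows of detected genes and in 23.9% of 159 windows of the 200 brightest. Within the ribosomal protein genes, however, the median signal was 7258 with the tract and 8181 without it. For translation factors it was 2550 with the tract and 2498 without it. The starts of the brightest members are shown with EEF1A1 and EEF2, because they carry the shared tract, and with LDHA and GAPDH, which lack it. Each run holds the 10 bases before the start and the first 20 transcribed bases, with the tract in capitals.
RPL41 (chr12:56116623-56116652, plus strand): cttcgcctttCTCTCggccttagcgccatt
RPLP2 (chr11:809957-809986, plus strand): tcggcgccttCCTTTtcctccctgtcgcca
RPS12 (chr6:132814559-132814588, plus strand): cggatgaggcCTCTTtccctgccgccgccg
RPS27 (chr1:153990752-153990781, plus strand): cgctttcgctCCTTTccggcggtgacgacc
RPL38 (chr17:74203668-74203697, plus strand): aagtctcgttCTTTTtcgtccttttccccg
RPS16 (chr19:39435930-39435959, minus strand): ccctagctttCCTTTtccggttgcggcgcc
RPS19 (chr19:41860245-41860274, plus strand): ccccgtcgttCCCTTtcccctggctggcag
EEF1A1 (chr6:73521013-73521042, minus strand): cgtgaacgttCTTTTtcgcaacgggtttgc
EEF2 (chr19:3985444-3985473, minus strand): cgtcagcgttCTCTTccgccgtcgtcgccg
LDHA (chr11:18394553-18394582, plus strand): ccagctcagagtgctgcagccgctgccgcc
GAPDH (chr12:6535254-6535283, plus strand): gtgcatccctgtccggatgctgcgcctgcg
All but LDHA and GAPDH carry the tract in capitals. RPS29, also among the 30 brightest, had no such tract at its first annotated start.

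The cytoskeleton was detected as fully, at 42 of 43 genes. VIM, the intermediate filament vimentin of mesenchymal cells, gave 13335 and 12292. The actin genes ACTB and ACTG1 and the actin-binding PFN1, at 11556 and 11831, all stood above 10000. Near-identical copies such as TUBA1A and TUBA1C may bind the same probe, so their separate levels are uncertain. CNN1, a calponin of smooth muscle, was absent at 100.1 and 99.9.

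All 20 glycolysis genes were detected, with a median signal of 3527. ENO1, enolase, gave 14509.6 and 12096 and GAPDH 14016 and 11765. The enolase form typical of neurons, ENO2, gave 4775 and 4385, and the glucose transporter SLC2A1 gave 1746 and 1787. The respiratory chain was detected at 44 of 45 genes, with a median of 2487. The ATP synthase subunit ATP5F1B was the brightest, with 11691 and 11549.6, and the complex I subunit NDUFC2, with 1 probe, was absent at 96.3 and 97.1. Both energy pathways were thus read well above background.

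Protein turnover and folding genes were nearly all detected. Of 27 proteasome subunits all were, led by the catalytic core subunits PSMB7 at 6223 and 6525 and PSMB6 at 6350.2 and 6262. Chaperones were detected at 35 of 38, led by HSPA8, the constitutive HSP70, at 8484 and 9505 and HSP90AA1 at 5326 and 6571. The stress-inducible HSPA1A was absent on its probe, with 92.7 and 93.2, while its near-identical copy HSPA1B was detected at 1493 and 1474, so the level of the pair is uncertain. In the lysosome list, 21 of 23 genes were detected, led by the autophagy receptor SQSTM1 at 8958 and 9074 and the saposin precursor PSAP at 5371 and 4805. Absent were the protease gene CTSZ at 86.3 and 94.5 and TFEB, a transcription factor for lysosome genes, at 97.4 and 102.

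In the list of iron, redox and metallothionein genes, 28 of 31 were detected. Beside MT2A, the metallothioneins MT1X at 7622 and 7882 and MT1E at 7368 and 5866 were bright. MT1B, at 91.7 and 97.00, and MT4, at 93.2 and 90.3, were absent, as was SLC40A1, the iron exporter ferroportin, with 100.2 and 92.3. TXN, the redox protein thioredoxin, gave 10433 and 10631. Cholesterol and fatty acid synthesis genes were detected at 20 of 21 but were dimmer, with a median signal of 349. ACLY, which supplies cytosolic acetyl-CoA, led with 3314 and 2898.

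Proliferation genes were detected throughout. Of 37 genes of G2/M and mitosis all were detected, with a median signal of 685, led by UBE2C, a ubiquitin-conjugating enzyme of the anaphase-promoting complex, at 6021 and 6275. The securin gene PTTG1 gave 4631 and 4842 and the mitotic kinase AURKA 2406 and 2688. The proliferation marker MKI67 was dim at 183 and 198. Of 41 G1/S and replication genes 38 were detected, led by CCND1, cyclin D1, at 7212 and 6552, and the helicase subunit MCM3 at 3800.3 and 3616. CDK4, the partner of cyclin D1, gave 2744 and 2374 and its relative CDK6 gave 321 and 339. The cyclin CCNE2 was absent at 85.5 and 90.4, while CCNE1 was detected at 378 and 389.6.

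**Figure D3:**
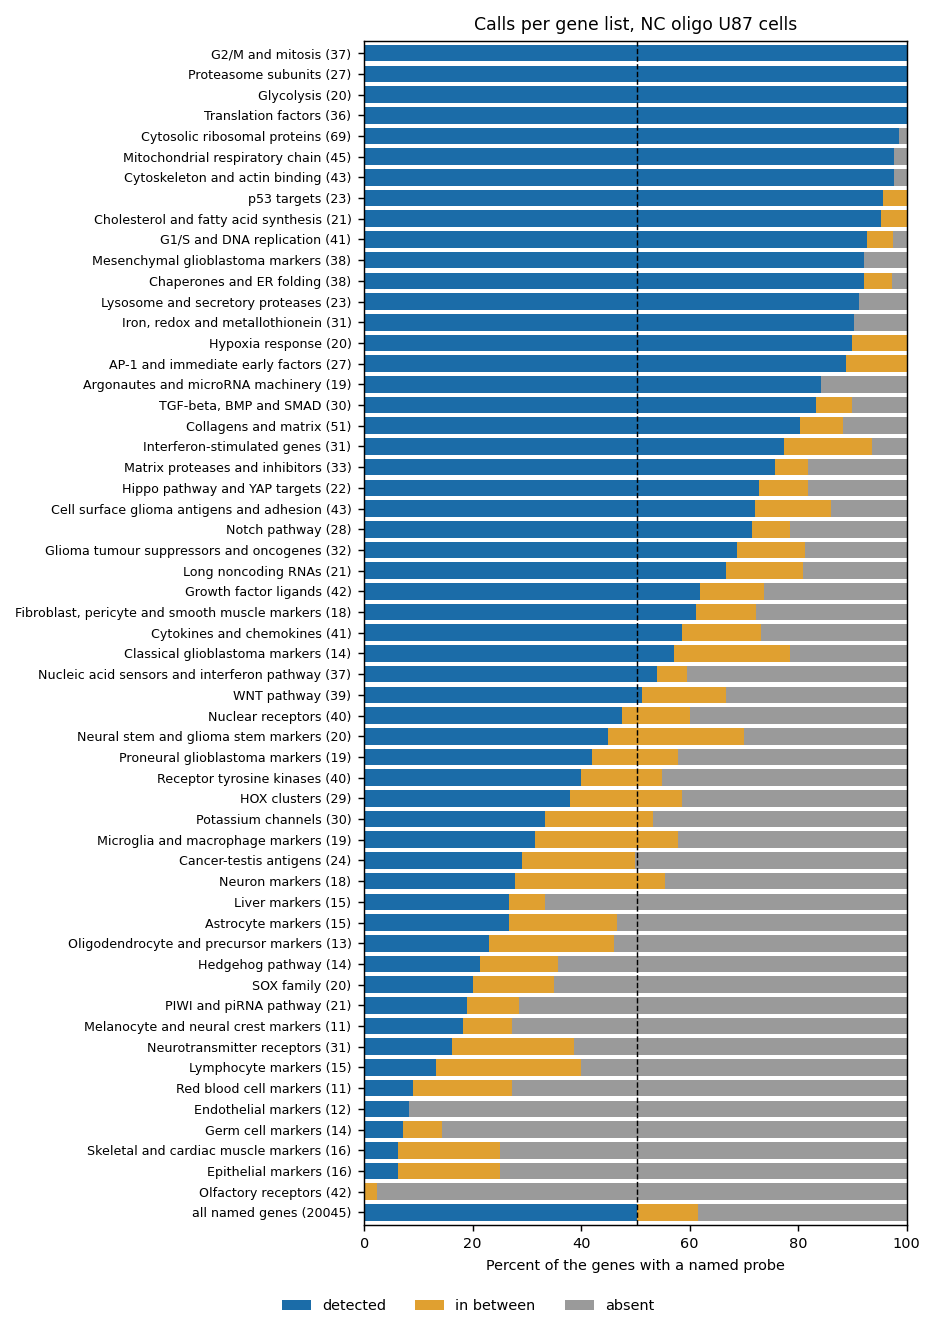
Percent of the genes with a named probe that were detected, in between or absent in each of 56 gene lists, with the number of genes in brackets. The dashed line marks the 50.3% of all named genes that were detected. The lists run from all members detected for mitosis to 0 detected for olfactory receptors.

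Of the glioblastoma subtype markers, the mesenchymal set was the one read far above background. It had 35 of 38 members or 92.1% detected, with a median signal of 827. The classical set had 8 of 14 or 57.1%, with a median of 126. The proneural set had 8 of 19 or 42.1%, with a median of 103. The classical and proneural shares lay near the 50.3% of all named genes, whose median signal was 110. The lists were chosen with earlier results of these data known, so these shares assign no subtype to the line. Mesenchymal members at the bright end were LGALS1, TGFBI, VIM, S100A10, TIMP1 and ANXA2, all among the 30 brightest genes. CD44, the hyaluronan receptor, gave 9045 and 8882. CEBPB, a transcription factor placed at the head of the mesenchymal programme, gave 5568 and 6491, and its partner STAT3 gave 463 and 492. CHI3L1, a secreted lectin often used as the mesenchymal marker, was dimmer at 350.2 and 261. Absent were ZEB1, a repressor of epithelial genes, at 91.1 and 88.4, TGFB1 at 94.1 and 92.7 and the matrix protein POSTN at 99.6 and 98.8.

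Classical and proneural members were dim where detected. EGFR led the classical set with 326 and 314, and 2 of its 4 probes were detected. With every probe required, 5 of the classical set remained. SOX9, a glial transcription factor, gave 316 and 323, and NES, the progenitor filament nestin, 209 and 197. In the proneural set NOTCH1 was the brightest, at 226 and 237. OLIG2 gave 125 and 125, just above background, and PDGFRA was in between at 102 and 106. Absent proneural genes were PTPRZ1, TTYH1, SOX2, SOX11, NKX2-2, OLIG1, DLL3 and CSPG5. SOX2, the stem cell factor of many glioma cultures, read 93.5 and 94.7 on the brighter of 2 probes. Of 20 neural and glioma stem genes 9 or 45% were detected, near the 50.3% of all named genes. ID1, an inhibitor of differentiation factors, led with 2113 and 2068, while PROM1, the CD133 antigen, was absent at 89.8 and 95.9.

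**Figure D4:**
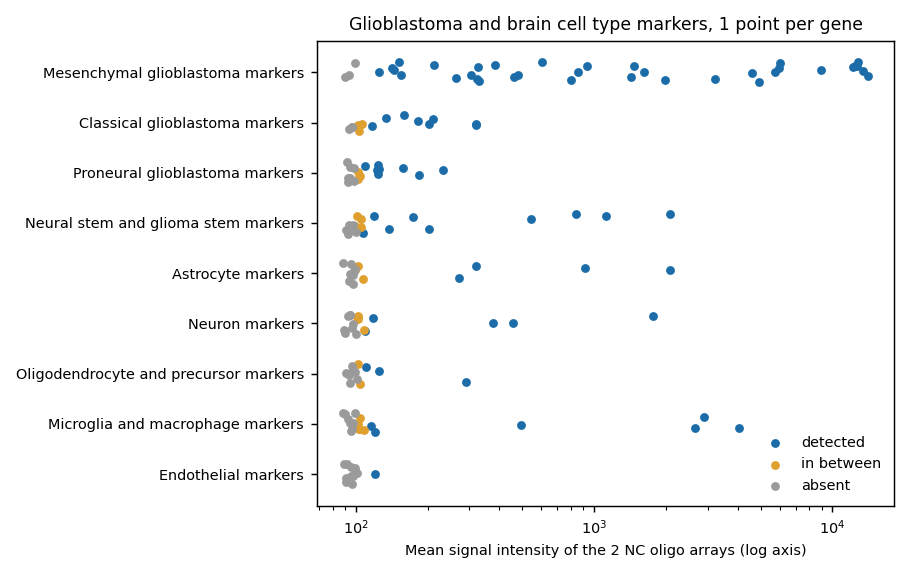
Mean signal intensity of the 2 NC oligo arrays (log axis) for each gene of 9 marker lists, coloured by call, with points spread at random within a row. Mesenchymal markers reach above 10000, while the other sets mostly sit near the background of about 100, apart from a few genes such as HLA-DRA and ALDOC.

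Mature astrocyte markers were largely at background. Of 15 astrocyte markers 4 were detected, against 50.3% of all named genes. ALDOC, an aldolase of astrocytes that also belongs to glycolysis, gave 1982 and 2181, and GJA1, connexin 43, gave 966 and 869. SOX9, above, and the glutamate transporter SLC1A3, at 251 and 293, were the others. GFAP, the defining filament of astrocytes, was absent at 94.5 and 94.4, with a detection p of 0.447 and 0.466 on its single probe. The calcium-binding S100B, at 94.4 and 92.5, and the water channel AQP4, at 89.7 and 87.9, were absent too. So were ALDH1L1 at 95.7 and 95.03, SLC1A2 at 100.1 and 95.8, GJB6 at 98.3 and 96.8, CLU at 96.5 and 98.3 and NDRG2 at 96.8 and 102. GLUL, glutamine synthetase, was in between at 104 and 109, as were FABP7 at 106 and 91.8 and APOE at 104 and 99.6. Among the listed markers, most mesenchymal glioblastoma genes were thus detected, while the filament that defines astrocytes gave no signal above background.

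Markers of other brain cell types gave few signals in this single cell line, beside the 50.3% of all named genes that were detected. Among neuron markers 5 of 18 were detected, led by TUBB3, a tubulin of neurons and many tumour lines, at 1654 and 1885. SNAP25, of synaptic vesicle fusion, gave 458 and 458 and GAD1, which makes GABA, gave 368 and 382. The nuclear neuron marker RBFOX3 was absent at 91.6 and 88.4. Oligodendrocyte lineage genes were detected at 3 of 13, CSPG4, the NG2 proteoglycan, at 291 and 289, OLIG2 as above and CNP at 109 and 112, while SOX10 was absent at 89.05 and 92.1. Endothelial genes were detected at 1 of 12, TEK at 122 and 118, and CDH5 was absent at 93.96 and 87.5. In RNA pooled from many cells, few cells with a transcript and little transcript per cell cannot be told apart.

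Microglia and macrophage markers gave a split picture, with 6 of 19 or 31.6% detected, against 50.3% of all named genes. HLA-DRA, the alpha chain of an MHC class II molecule, was bright at 4202 and 3871, and its chaperone CD74 gave 2617 and 2683 with all 3 probes detected. CD68, a lysosomal protein of macrophages, gave 2905 and 2876, and CSF1R, the receptor of macrophage growth factor, gave 498 and 485. AIF1 at 117 and 122 and CD14 at 117 and 115 were dim. PTPRC, the CD45 antigen that defines leukocytes, was absent on all 4 probes, the brightest at 91.4 and 94.2. ITGAM was absent at 96.1 and 97.3 and TYROBP at 87.7 and 92.9. Fibroblast, pericyte and smooth muscle genes were detected at 11 of 18 or 61.1%, not far from the 50.3% of all named genes. The brightest were the collagen gene COL1A2 at 1497 and 1421 and the actin ACTA2 at 1366 and 1447.

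Among 32 genes altered in gliomas, 22 or 68.75% were detected, against 50.3% of all named genes. Another 6 were absent, a class that held 38.5% of all named genes, and 4 were in between. Of the 32 genes, 13 had every probe detected. The histone gene H3-3A gave 4260.04 and 3713 and the cell cycle inhibitor CDKN1A 3595 and 4229.99. The kinase AKT1 gave 1738 and 1693 and the transcription factor MYC 907 and 780.2. IDH1 and IDH2, metabolic enzymes mutated in lower-grade gliomas, gave 707 and 649 for IDH1 and 352 and 339 for IDH2. The small GTPase HRAS gave 575 and 590.2, the mismatch repair gene MSH6 759 and 804, LZTR1 712 and 769 and the spindle gene TACC3 782 and 675. RB1, the retinoblastoma protein, was dim at 123 and 124, and MDM2, which degrades p53, dimmer still at 109 and 110.4. CDKN1B, CDKN2D, CIC, DAXX, STAG2, PMS2, PPM1D, FUBP1, PIK3R1 and QKI were detected between these levels, the brightest of them CDKN1B at 347 and 375 and the dimmest QKI at 114 and 120.5.

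The absent genes were CDKN2A, MTAP, MGMT, TERT, MYCN and ATRX. CDKN2A, which encodes the inhibitors p16 and p14ARF, had 3 probes, all absent, with the brightest at 93.3 and 91.7 and a detection p of 0.547 and 0.714. MTAP, a methionine salvage enzyme next to it, gave 94.5 and 93.5. MGMT, which removes alkyl groups from guanine, gave 92.8 and 92.3, with a detection p of 0.596 and 0.662 on its single probe. TERT, the telomerase catalytic subunit, gave 93.1 and 94.7, MYCN gave 92.2 and 94.1 and the chromatin remodeller ATRX 96.4 and 98.7. In between were CDKN2B, MDM4, NF1 and AKT2. NF1, a brake on RAS, read 102 and 112, with a detection p of 0.0623 and 0.0013.

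The genes around CDKN2A were read in chromosomal order on chromosome 9. From IFNB1 to ELAVL2, 24 named genes in a row were not detected, 23 of them absent. CDKN2B, the gene of the inhibitor p15, was the one in between, at 102 and 105 with a detection p of 0.0519 and 0.0221. The 5 genes before CDKN2A, IFNA8, IFNA1, IFNE, MIR31 and MTAP, and the 4 after it, CDKN2B-AS1, CDKN2B, DMRTA1 and ELAVL2, all lay in the run, and the fifth, TUSC1, ended it. TUSC1 was detected at 203 and 198, and HACD4, a fatty acid elongation enzyme at the other end, at 214 and 205. Most of the run consists of interferon genes, which are silent in most resting cells, 13 interferon alpha genes among them. KLHL9, a ubiquitin ligase adaptor between the interferon genes, was absent at 90.1 and 87.01, and it was singled out after its value was seen. Runs as long or longer occurred 10 times, this one included, and the longest held 66 genes on chromosome 11 around olfactory receptors. Whether the region is deleted was not tested.

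**Figure D5:**
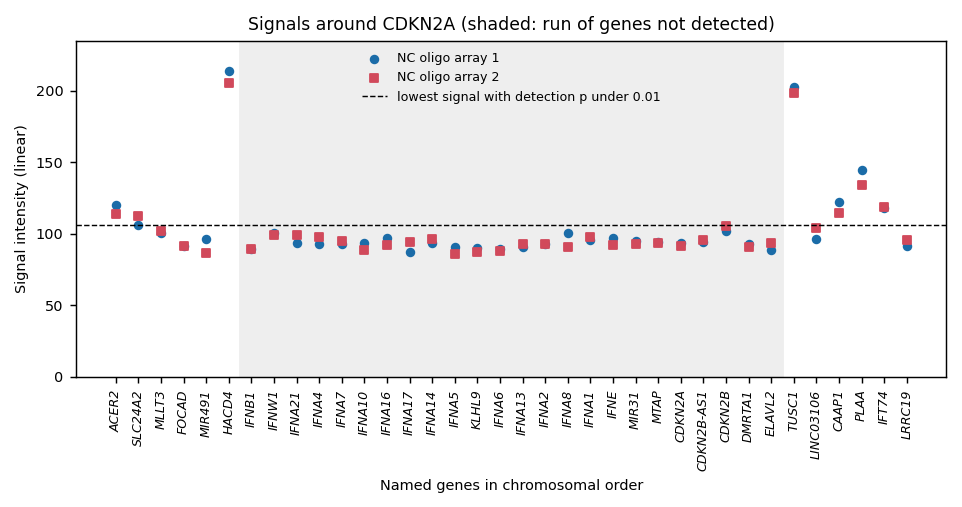
Signal intensity (linear axis from 0) of named genes around CDKN2A in chromosomal order, for NC oligo array 1 (circles) and NC oligo array 2 (squares). The shaded run from IFNB1 to ELAVL2 stays at or under the dashed line, the lowest signal with a detection p under 0.01, while HACD4 and TUSC1 on its sides reach about 200.

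Of 40 receptor tyrosine kinases 16 or 40.0% were detected, against 50.3% of all named genes, and 18 were absent, against 38.5%. AXL, the receptor of GAS6 found on mesenchymal cells, was the brightest at 2522 and 2649, on both probes. RYK, a WNT co-receptor, gave 656 and 582, CSF1R 498 and 485 and PDGFRB, of pericytes, 404 and 406. MET, the hepatocyte growth factor receptor, gave 394 and 375 and TYRO3, a relative of AXL, 335 and 325. EGFR, at the level above, stood seventh. Detected but dim were the collagen receptors DDR2 at 228 and 247 and DDR1 at 229.9 and 224, the ephrin receptor EPHA2 at 179.9 and 177, ALK at 144 and 142 and ERBB2 at 140.1 and 143. EPHB4, EPHA4, PTK7 and TEK were dimmer, the last at 122 and 118.

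No member of the fibroblast growth factor receptor family was detected: FGFR1 read 95.4 and 95.2, FGFR2 89.1 and 90.3 and FGFR4 94.5 and 93.7, all absent, and FGFR3 was in between at 102 and 104. The insulin family receptors INSR, at 97.5 and 99.4, and IGF1R, at 91.97 and 96.9, were absent on 1 probe each. The vascular receptors KDR, FLT1, FLT4 and TIE1 were absent, KDR at 99.9 and 99.9. ERBB4, FLT3, MERTK, MST1R, NTRK2, RET, ROS1, ROR1 and ROR2 were absent as well. PDGFRA, KIT, ERBB3, NTRK3 and EPHA3 were in between, KIT with 107 and 96.7 and a detection p of 0.00519 and 0.306.

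Growth factor ligands were detected at 26 of 42 or 61.9%, against 50.3% of all named genes, and at 16 with every probe required. ANGPTL4, a secreted lipase inhibitor induced by hypoxia, gave 3290.4 and 3036, and the vascular growth factors VEGFB 3092 and 2768 and VEGFA 1472 and 1216. HBEGF and TGFA, both ligands of EGFR, gave 1115 and 1029 for HBEGF and 761 and 709 for TGFA. FGF2, a ligand of the fibroblast growth factor receptors, gave 715 and 866, and GAS6, the ligand of AXL, 544 and 500.2. LIF, a cytokine of the IL-6 family, gave 975 and 920.4. Absent ligands included BMP4 at 92.05 and 89.3, FGF7 at 91.7 and 92.9 and ANGPT2 at 95.9 and 89.7.

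Inflammatory cytokines were among the bright secreted products, although 24 of 41 in the list, or 58.5%, is close to the 50.3% of all named genes. CXCL8, the neutrophil chemokine interleukin-8, gave 11945 and 10419. MIF gave 7607 and 7317, and IL1B 5143 and 5421. IL18 gave 2876 and 2952, IL6 1925 and 1956 and IL11 1299 and 1389.5. The interferon-induced chemokines CXCL9 and CXCL11 were absent, CXCL9 at 93.5 and 90.6, and TNF was absent at 102 and 98.03. CCL7, CCL4, IL4 and IL13 were absent too, while TNFSF10, the death ligand TRAIL, read 90.6 and 91.3.

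At the cell surface 31 of 43 adhesion and glioma antigens or 72.1% were detected, against 50.3% of all named genes. CD44 was followed by the tetraspanin CD151 at 8511 and 8254, caveolin CAV1 at 7933 and 7336 and the integrin chain ITGB1 at 7272 and 6903. ITGA3, its partner in laminin binding, gave 3578 and 2857. Glioma antigens PDPN, podoplanin, and IL13RA2, an interleukin-13 decoy receptor, gave 815 and 787 for PDPN and 693 and 701 for IL13RA2. CDH2, N-cadherin, gave 1607 and 1628, whereas CDH1, E-cadherin, was absent at 94.5 and 91.5. CD274, the immune checkpoint ligand PD-L1, was absent at 92.99 and 95.1.

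Matrix genes were detected at 41 of 51 or 80.4%, against 50.3% of all named genes. PLOD2, which hydroxylates collagen lysines, gave 7279.6 and 8552, COL6A3 7902 and 6899.96 and the glioma matrix protein TNC 5586 and 5845. COL7A1 gave 3372 and 3265 and SPARC 3209 and 3129.9. Fibronectin, FN1, was dim on its brightest probe, at 119.6 and 131. COL18A1, LOXL2, ELN, NID1, COL11A1 and NID2 were absent, LOXL2 at 96.1 and 94.9. Of 33 proteases and inhibitors 25 were detected, with TIMP1 at 13142 and 11611, the urokinase gene PLAU at 6287 and 7025, its inhibitor SERPINE2 at 6258 and 6503 and its receptor PLAUR at 1929 and 2034. The stromelysin MMP3 was the brightest metalloprotease, at 2611 and 2129, and MMP2 gave 421 and 363. MMP9, the gelatinase of many gliomas, was absent at 94.7 and 96.9, and MMP14 was dim at 117 and 109.

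Hypoxia, p53 target and AP-1 lists were nearly all detected, against 50.3% of all named genes. Hypoxia genes were detected at 18 of 20 with a median signal of 1406, led by BNIP3, a mitophagy receptor, at 8098 and 7635, the peptide hormone ADM at 5534 and 5521 and NDRG1 at 3637 and 3899. CA12, a carbonic anhydrase, gave 3408 and 3764. Targets of p53 were detected at 22 of 23 with a median signal of 197, led by the RNA-binding ZMAT3 at 7501 and 7687, CDKN1A as above and the death receptor TNFRSF10B at 1659.8 and 1393. Many p53 targets are also set by other factors, so their level was not read as p53 activity. AP-1 and immediate early genes were detected at 24 of 27, led by IER3 at 3722 and 3725, JUND at 3148 and 3028 and JUN at 2283 and 2265. FOSL1, an AP-1 subunit of invasive cells, gave 1073 and 1026, while FOS was dim at 127 and 124.

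Signalling lists ranged widely around the 50.3% of all named genes. TGF-beta and BMP genes were detected at 25 of 30 or 83.3%, and at 15 with every probe required, led by the BMP antagonist GREM1 at 1755 and 1491 and the receptor TGFBR2 at 939.9 and 803, while CHRD, NOG and SMURF2 were absent, CHRD at 92.4 and 90.7. Hippo genes were detected at 16 of 22 or 72.7%, with the target CCN2 at 1012 and 1024 and the effector YAP1 at 293 and 262, and WWTR1, the YAP1 relative TAZ, was absent at 101 and 100.2. WNT genes were detected at 20 of 39 or 51.3%, near the share of all named genes, led by WNT5A at 1554 and 1274, and DVL1 and WNT3A were absent, DVL1 at 89.7 and 87.3. Notch genes were detected at 20 of 28 or 71.4%, led by the inhibitor NUMB at 2229 and 2019.8, with ligands DLL1, DLL3, DLL4 and JAG2 absent and JAG1 detected at 158 and 159. The Hedgehog list had 3 of 14 or 21.4% detected, KIF7 at 352 and 325, GLI3 at 135 and 134 and GLI2 at 131 and 138. The Hedgehog receptor PTCH1 was absent at 92.8 and 92.2, the transducer SMO at 98.2 and 95.3 and the ligand SHH at 91.3 and 92.1.

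Transcription factor families differed in detection, against 50.3% of all named genes. SOX genes were detected at 4 of 20 or 20%, SOX9, SOX13 at 165 and 181, SOX15 at 148 and 157 and SOX4 at 122 and 125. HOX genes, which pattern the body axis and are off in most of the brain, were detected at 11 of 29 or 37.9%, and at 6 with a detection p under 0.001, led by HOXC6 at 461 and 424 and HOXB2 at 361 and 408. HOXC12 was absent at 87.01 and 90.5, as was HOXB9 at 91.2 and 91.04. Nuclear receptors were detected at 19 of 40 or 47.5%, near the share of all named genes, and at 7 with every probe required, led by the retinoic acid receptor RARA at 711 and 719 and the orphan receptors NR2F6 at 359.8 and 385 and NR2F1 at 334 and 311. The oestrogen receptor ESR1 was absent at 91.2 and 95.4.

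The machinery for microRNAs and that for PIWI-interacting RNAs differed in how much of it was detected. Of 19 microRNA pathway genes 16 were detected, 10 of them on every probe, against 4 of 21 in the PIWI list, all set beside 50.3% of all named genes. RAN, the GTPase of nuclear transport, gave 6371 and 6158, and SND1, a nuclease of RNA silencing, 1632 and 1857. DROSHA, which cuts primary microRNAs in the nucleus, gave 395 and 374, its partner DGCR8 345 and 322 and DICER1, which cuts hairpins in the cytoplasm, 196 and 181. The Argonautes AGO2, AGO1 and AGO3 were detected, AGO2 at 309 and 294, AGO1 at 207 and 212 and AGO3 at 117 and 123, and AGO4 was absent at 98.6 and 99.6. TSN and TNRC6C were also absent, TSN at 91.5 and 97.03 on its single probe. GEMIN4, PRKRA, TNRC6A, TARBP2, MOV10, TNRC6B, XPO5 and TSNAX made up the rest, from GEMIN4 at 659 and 854 to TSNAX at 207 and 201.

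All 4 human PIWI genes were absent. PIWIL1 read 93.7 and 97.9, PIWIL2 96.7 and 90.2, PIWIL3 91.7 and 88.99 and PIWIL4 97.1 and 99.7. Their detection p ran from 0.135 for PIWIL4 on array 2 to 0.897 for PIWIL3 on array 2, so none of these brightest probes neared the limit. Also absent were MOV10L1, the helicase that feeds PIWI-interacting RNA precursors, at 97.8 and 93.1, the methylase HENMT1 at 94.1 and 95.2, the germ cell helicase DDX4 at 94.3 and 89.98 and MAEL at 94.4 and 94.6. ASZ1, GTSF1, TDRD5, TDRD9, TDRD12, PNLDC1 and FKBP6 completed the absent genes, among which ASZ1 had the highest signal on 1 array, with 93.3 and 102. TDRD3 and TDRD6 were in between, at 102 and 101 for TDRD3 and 109.6 and 99.5 for TDRD6. Detected were PRMT5, an arginine methylase with many other roles, at 512 and 453, PLD6, a mitochondrial protein related to the fly nuclease Zucchini, at 391 and 416, TDRD1 at 162 and 161 and TDRKH at 114 and 109. TDRD1, a Tudor protein of the germ line, was detected on both of its probes.

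Sensors of foreign nucleic acid, which a transfected oligo could meet, were detected at 20 of 37, or 54.1%, near the 50.3% of all named genes, and at 12 with every probe required. The RNA-editing enzyme ADAR gave 1249 and 1247 and the RNA-dependent kinase EIF2AK2 436 and 422. IFIH1, a sensor of double-stranded RNA, was absent at 97.9 and 100.03, TLR3 at 101 and 97.5, TLR7 at 90.5 and 88.8 and CGAS, the sensor of DNA, at 88.04 and 91.3. STING1, the adaptor of CGAS, was absent at 96.2 and 97.00 and RIGI was in between. IFNB1 was absent at 89.6 and 89.7. Interferon-stimulated genes were detected at 24 of 31, led by IFITM2 at 786 and 925, IFITM3 at 828 and 782, LGALS3BP at 774 and 749 and the peptide transporter TAP1 at 761 and 687. The median signal of the list was 173. IFI6 gave 711 and 719, HERC5 479 and 554, IFI44 398 and 431, ISG15 267 and 251, IFIT1 125 and 122 and MX1 108 and 110.1, and IFI27 was absent at 99.3 and 94.98. Untransfected cells were not analysed here, so no change in these genes can be read.

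Markers of tissues other than brain were mostly absent, while 38.5% of all named genes were absent and 50.3% detected. Of 42 olfactory receptor genes 0 were detected and 41 were absent, with mean signals from 88.4 to 102 over the list. Epithelial markers were detected at 1 of 16, MUC1 at 165 and 145, with the keratins KRT5 and KRT14 absent, KRT14 at 87.8 and 88.5. Muscle markers were detected at 1 of 16, TNNT1 at 209 and 195, germ cell markers at 1 of 14, NANOS3 at 205 and 207, and red cell markers at 1 of 11, HBA2 at 111 and 108, a gene near-identical to HBA1, which was absent. Lymphocyte markers were detected at 2 of 15, CD2 at 139 and 130.1 and CD79B at 113 and 118. Liver markers were detected at 4 of 15, the oncofetal gene AFP at 212 and 199, ALB at 186 and 158, SERPINA1 at 117 and 115 and CYP2E1 at 111 and 112. Melanocyte markers were detected at 2 of 11, TFAP2A at 180.03 and 172 and MITF at 139.6 and 138, while TYR and MLANA were absent. All of these sat between background and about 212. With every probe required, melanocyte, red cell and epithelial markers had 0 detected, liver markers 2 and lymphocyte markers 1.

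Neural excitability genes and cancer-testis antigens were sparse, beside the 50.3% of all named genes that were detected. Neurotransmitter receptors were detected at 5 of 31, CHRNA9 at 138 and 167, CHRNB1 at 130.5 and 140.00, GRIA3 at 135 and 135, ADRA1B at 129.7 and 132 and P2RX7 at 126 and 125. Potassium channels were detected at 10 of 30, or at 5 with every probe required, led by KCNMA1, the large-conductance calcium-activated channel known from glioma cells, at 821 and 795, and KCNS3 at 292 and 246. KCND2 was absent at 89.8 and 85.8. Cancer-testis antigens, germ line genes switched on in tumours, were detected at 7 of 24, led by MAGEC2 at 345 and 342 and MAGEA1 at 315 and 295, both on both of their probes, while 4 of the 7 had every probe detected. MAGEC1, GAGE12H, SSX1, SPANXA1 and MAGEA6 followed, and CTAG1B, the NY-ESO-1 antigen, was absent at 98.6 and 102. Members of these families are near-identical, so a signal may belong to a relative.

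By kind of gene, 9672 of 17774 protein-coding genes or 54.4% were detected, against 134 of 798 long noncoding RNA genes or 16.8% and 22 of 560 microRNA genes or 3.93%. Labelling was poly(A)-primed, so RNAs without a poly(A) tail, mature microRNAs among them, were not its intended targets. The share for microRNA genes is thus no measure of mature microRNAs, and which RNA each of these probes read was not tested. Of 21 listed long noncoding RNAs 14 or 66.7% were detected, against 50.3% of all named genes. The brightest were the small nucleolar RNA hosts SNHG5 at 4642 and 4502, ZFAS1 at 3275 and 2846 and SNHG1 at 1692 and 1666. TUG1 gave 1515 and 1692 and MEG3, silenced in many gliomas, 385 and 404. MALAT1, an abundant nuclear RNA, was absent on its single probe at 94.4 and 95.3, H19 at 90.6 and 91.6, HOTAIR at 92.3 and 99.2 and CDKN2B-AS1 at 94.04 and 95.9. Whether the MALAT1 value reflects the probe was not tested.

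Among microRNA genes MIR302C was the brightest, at 248 and 252, followed by MIR586 at 199.96 and 182 and MIR1228 at 185 and 173. MIR221, whose product targets CDKN1B, gave 166 and 151, and MIR21, an oncogenic microRNA of gliomas, was just detected at 118 and 109. MIR31, which lies in the run around CDKN2A, was absent at 94.9 and 92.8. A mature product each of MIR302C, MIR221, MIR21 and MIR31 is shown with the seed, bases 2 to 8 from the 5′ end, in capitals, to identify the genes best known from gliomas and stem cells (RefSeq, GRCh38.p14). No 2 of them share a seed.
hsa-miR-302c-3p (chr4:112648366-112648388, minus strand): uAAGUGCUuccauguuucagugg
hsa-miR-221-3p (chrX:45746180-45746202, minus strand): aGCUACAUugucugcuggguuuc
hsa-miR-21-5p (chr17:59841273-59841294, plus strand): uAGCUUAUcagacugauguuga
hsa-miR-31-5p (chr9:21512158-21512178, minus strand): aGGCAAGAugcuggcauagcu
The signals are given per gene and, with poly(A)-primed labelling, are no measure of these mature products.

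Promoter composition differed between detected and absent genes. Over all named genes this comparison is void, because 67.0% of absent genes had a RefSeq promoter window, against 81.6% of detected genes. It was therefore made over protein-coding genes of the chromosomes whose windows were used, where 87.01% of detected and 80.1% of absent genes had one, a restriction chosen after these shares were seen. A window spans 250 bases before to 50 after the first annotated start. A ratio of observed to expected CG above 0.6, the mark of a CpG-dense promoter, was met by 84.2% of 8115 detected genes, 56.5% of 1521 genes in between and 42.3% of 4802 absent genes. It was met by 67.3% of all 14438 such windows. The motif TATAAA, searched on both strands, stood in 5.51% of windows of detected genes and 15.5% of those of absent genes, against 9.41% of all 14438 windows of this set. Genes are not replicates, so these shares are a description.

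The windows of 1 detected and 1 absent gene that differ widely in CG count are shown, with every CG in capitals. LDHA, with signals of 14748 and 14479, has 29 CG in its window, chr11:18394313-18394612 on the plus strand of GRCh38.p14. AQP4, with signals of 89.7 and 87.9, has 2 in its window, chr18:26865754-26866053 on the minus strand.
LDHA: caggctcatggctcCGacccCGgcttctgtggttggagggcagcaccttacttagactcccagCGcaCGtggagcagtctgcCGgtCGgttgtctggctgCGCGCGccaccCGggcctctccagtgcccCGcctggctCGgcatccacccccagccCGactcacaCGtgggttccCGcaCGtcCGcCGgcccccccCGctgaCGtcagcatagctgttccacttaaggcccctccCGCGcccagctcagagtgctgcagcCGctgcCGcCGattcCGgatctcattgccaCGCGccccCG
AQP4: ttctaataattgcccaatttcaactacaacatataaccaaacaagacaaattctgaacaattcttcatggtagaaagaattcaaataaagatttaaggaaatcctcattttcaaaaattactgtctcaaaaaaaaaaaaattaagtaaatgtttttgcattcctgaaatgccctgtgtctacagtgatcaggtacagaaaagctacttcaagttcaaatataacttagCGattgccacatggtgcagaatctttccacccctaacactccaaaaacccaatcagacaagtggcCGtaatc
The difference is one of shares and no rule for single genes, since 42.3% of absent genes were CpG-dense. MGMT, absent at 92.8 and 92.3, has 45 CG in its window, and CXCL8, among the bright genes at 11945 and 10419, has 4.

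Few genes lay on the steps next to the limit, but more calls differed between the arrays. Of named probes, 12969 were detected on both arrays, 868 on array 1 alone and 389 on array 2 alone. Among those detected on 1 array alone, 556 had a detection p over 0.05 on the other. The larger detection p of 29 genes was 0.00909, the last step under 0.01, and that of 49 genes was 0.0104, the first step over it. Just inside lay NR2E1, DCLK1, TIAM1, SMN1 and PAWR. NR2E1, a nuclear receptor of neural stem cells, read 106 and 108. Just outside lay FSIP1, USP35, KDM4C, USP19 and ESCO1, with KDM4C, a histone demethylase, at 105.6 and 119. Of 4058 detected genes with more than 1 probe, 1871 or 46.1% also had an absent probe.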

How the data were processed

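RNA of the 2 NC oligo cultures was labelled by a poly(A)-primed kit and read on Illumina HumanHT-12 bead arrays. Per the deposited table's own columns, each array has a linear signal intensity and a detection p-value for 47318 probes. The deposited intensities are neither background-subtracted nor scaled, as judged from their values. A second deposited table holds the same intensities times 1 constant per array, 0.951 for array 1 and 0.970 for array 2, and was used as an alternative. GenomeStudio 2011.1 produced the values, per the submitters' processing notes. Detection p-values in the deposited files lie on steps of 1 in 770.

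Of the probes, 30112 had 1 gene symbol, 8 several and 17198 none, from the platform annotation, and 30073 matched RefSeq by gene ID. Unnamed probes stayed out of gene counts. The 8 probes with several symbols stayed out too. For differences between the arrays, log2 values were computed from the deposited intensities with limma 3.58.1 neqc in R 4.3.3 (normal-exponential background correction with offset 16, then quantile normalization). No test between groups was run.

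Named genes are the 30 brightest, the brightest and absent members of each of 56 lists with 1449 genes on the arrays, all members of 4 lists (glioma genes, receptor tyrosine kinases, PIWI pathway, astrocytes), the neighbours of CDKN2A, the 10 largest differences between arrays and genes at the threshold. Other list members were named for their known role after their values were seen. The members and lists were chosen with earlier results of these data known. Promoters and microRNAs are RefSeq sequences (GRCh38.p14). The planned promoter comparison over all genes was void, since under 80% of absent genes had a window. Promoters on chromosome 8 were not used.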

Additional observations from a re-analysis of the deposited data

How the results depend on the processing

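The numbers of detected and absent genes stayed within 1.5 times under other detection thresholds, with the probe rule turned round and without either array. Without 1 array they ran from 10332 to 10670 detected and from 8362 to 8600 absent genes, 27 to 30 of the 30 brightest genes were kept, and 941 to 955 of the listed genes were detected, against 925 with both. With the probe rule turned round there were 7685 detected and 10399 absent genes. Other normalizations, 1 of them fitted on all 4 arrays, kept 29 or 30 of the 30 brightest genes. Counted as single probes, named or not, 15941 were detected and 25330 absent, which counts other units. The SD of the log2 difference between arrays was 0.13 with the authors' scaled signals (0.133) and with no background correction (0.132), against 0.204. It was 0.159 with an offset of 50 and 0.196 over all named genes. Of 56 lists, 14 moved by over 1.5 times when every probe of a gene had to be detected, 5 at a detection p under 0.001 and 2 at a detection p under 0.05. Muscle markers had 3 detected without array 1, against 1, and epithelial markers 2 without array 2, against 1. The difference in CpG-dense promoters ran from 35.8 to 42.4 percentage points over the settings tried, of which all but the one over protein-coding genes are void for want of promoters of absent genes. The restriction to protein-coding genes and the use of every annotated start were added after seeing the data. No paired analysis was possible because no contrast between groups was made.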

Other observations

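Genes of MHC class II and antigen processing, picked after their values were seen, were detected side by side on chromosome 6. From TAP2 to HLA-DPB1, 10 consecutive named genes were detected, among them PSMB8, TAP1, PSMB9, HLA-DMB and HLA-DMA. Runs of this length or longer were found on many chromosomes, so the run is not particular to these genes. The longest held 22 detected genes, from TRIM26 to VARS2, also on chromosome 6. HLA-DRA gave 4202 and 3871, HLA-DRB5 1966 and 1837, HLA-DPA1 1352 and 1223 and HLA-DMA, which loads peptide on class II molecules, 1085 and 1028. CIITA, the transactivator of class II genes, was just detected at 112 and 114, while HLA-DQB1 was absent at 90.6 and 97.3 and HLA-DOB at 98.3 and 100.1. Among class I genes HLA-B gave 4212 and 3645.

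Gene families taken by symbol, also after the fact, ran from near silence to near completeness. Of 371 olfactory receptor genes 3 were detected, of 81 keratin-associated protein genes 2 and of 13 interferon alpha genes 0. Mitochondrial ribosomal protein genes were detected at 77 of 80, with a median signal of 642 and MRPL37 brightest at 3454 and 3611. Collagen genes were detected at 21 of 43 or 48.8%, near the 50.3% of all named genes, cytochrome P450 genes at 12 of 53 or 22.6%, led by CYP1B1 at 1044 and 954, and keratins at 7 of 49, led by KRT10 at 1386 and 1052. Zinc finger ZNF genes were detected at 225 of 483 or 46.6%, close to the rate of all named genes.

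Several RNAs without poly(A) tails were bright, although labelling was poly(A)-primed. How they came to be labelled was not tested, so their signals are no measure of their amount. RN7SL1, of the signal recognition particle, gave 8161 and 9558. The ribosomal RNAs RNA28SN5, at 2528 and 3966, and RNA18SN5, at 1095 and 1614, were both brighter on array 2, while the spliceosomal RNU6-1 was brighter on array 1, at 2556 and 1894. All 4 Y RNA genes and all 3 vault RNA genes were detected.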
